A study of Hydra viridissima with 2 samples.

Results

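Loci dominated by a single start cluster were examined in CAGE data from whole green hydra (Hydra viridissima). CAGE reads the capped 5′ end of RNA, and each read, or tag, marks 1 base on 1 strand. The loci were chosen by the pooled tags of both libraries. On each strand, tagged positions with at most 20 bases between them were joined into clusters of at least 5 tags, and clusters with at most 1000 bases between them were joined into loci. A locus was kept if it had 3 or more clusters and at least 50 tags, and if 1 cluster held at least 70% of its cluster tags. This gave 420 dominated loci out of 4911 loci with 3 or more clusters and at least 50 tags, and out of 17517 loci in all. The cluster with the most tags is called the dominant cluster here, and the remaining clusters of a locus are called minor clusters. The other 4491 loci of 3 or more clusters, in which the top cluster held under 70%, served for comparison.

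One library came from aposymbiotic polyps, which lack the algal symbiont, and 1 from green (symbiotic) polyps, both of clone 2, with no other genotype or agent named in the labels. RNA of about 200 animals was pooled for a library, so single animals cannot be told apart. The animals lived at 24 °C and had gone unfed for 2 to 3 days. The aposymbiotic library had 2138180 tags and the symbiotic library 3926689, and a single tag was worth 0.468 and 0.255 CPM, the count scaled to a library total of 1000000 tags. Each group had 1 library, so no difference below has a replicate check and no p-value was computed. The intervals are exact 95% intervals that cover counting error or the number of loci or clusters only. Clusters of the same locus are not independent, so intervals over clusters may be too narrow.

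Green hydra keep algae of the genus Chlorella inside the cells of the inner body layer, and the algae pass sugar to their host. In animal genomes RNA polymerase II may start at a narrow site, often placed by a TATA box, or over a broad stretch of bases, as at many genes that are active in most cells. In hydra some messenger RNAs also receive a short capped leader by trans-splicing, so that the capped end of an RNA need not be the base where transcription began. Gene models and genome sequence were not used here, so loci are named by scaffold, first and last base and strand, in the coordinates of the deposited files, whose genome build is not given in the sources used here. Upstream and downstream mean toward the 5′ and the 3′ end in the direction of transcription.

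The dominated loci were few but heavily used. They held 40.2% of all aposymbiotic and 39.4% of all symbiotic tags, and their dominant clusters alone held 33.8% of the tags of either library. Of the 100 clusters with the most pooled tags, 45 were the dominant cluster of such a locus and 4 were a minor cluster of one. The median locus had 663 pooled tags (interval 513 to 836), and the range ran from 50 to 217620. The 10 strongest loci held 37.0% and the 100 strongest 91.2% of the tags of all dominated loci. Dominated loci became more frequent with the number of tags. They made up 3.27% (112 of 3430) of the loci with under 200 tags, 12.7% (10.8 to 14.9) of those with 200 to under 1000, 35.7% (29.8 to 42.0) of those with 1000 to under 5000 and 57.2% (48.5 to 65.6) of those with 5000 or more. These bins were set after the values were seen. The rule also limits dominated loci with few tags, since minor clusters of at least 5 tags each take a larger share there. Under 200 tags the median number of clusters was 3 in dominated and 6 in other loci. How much of this rise, and of the tags held by dominated loci, comes from the rule was not tested. The loci lay on 24 scaffolds. The scaffolds with the highest counts were scaffold_2 (58 of its 655 loci, 8.85%), scaffold_1 (42 of 542, 7.75%) and scaffold_7 (36 of 308, 11.7%), beside 8.55% of all 4911 loci. On the plus strand lay 231 of 420, against 50.6% of all 4911 loci. Of the 420 loci, 38 lay within 5000 bases of another on the same strand, a count from which nothing is read.

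A median dominated locus spanned 800 bases (730 to 872) and had 4.5 clusters (4 to 5), against 819 bases (797 to 846) and 6 clusters in the other loci. By pooled tags, the values the choice rests on, the dominant cluster held a median of 79.9% of the locus, from 70.1% to close to all of it. The second cluster held a median of 10.9% (10.2 to 11.7). The members just inside the threshold lay at scaffold_11:15056684-15057032 (minus strand), at scaffold_7:6665195-6665707 (plus strand) and at scaffold_10:10669896-10670552 (plus strand), each with 70.1%. The loci just outside it lay at scaffold_3:7735205-7735618 (minus strand, 69.8%), at scaffold_5:17449264-17449807 (plus strand, 69.8%) and at scaffold_1:34454899-34455826 (plus strand, 69.7%). The first of the members just inside had 60 aposymbiotic and 97 symbiotic tags, with dominant shares of 56.7% (43.2 to 69.4) and 78.4% (68.8 to 86.1), so its place depends on pooling.

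Dominant clusters were spread over many bases, although dominated loci were more concentrated than the other loci. The dominant cluster had a median width of 114.5 bases (101 to 130), measured between the 10th and the 90th percentile of its tags. Of the 420, 232 (55.2%, 50.3 to 60.1) were wider than 100 bases, against 15.9% (14.9 to 17.0) of the top clusters of all 4911 loci. This share moved with tags, from 16.1% of dominated and 4.52% of other loci under 200 tags to 63.3% and 67.8% at 5000 or more.

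Sharp dominant clusters, of 10 bases or less, numbered 22 of 420 (5.24%, 3.31 to 7.82), against 15.3% (14.3 to 16.4) of all 4911 loci. That contrast also moved with tags. Under 200 tags 11.6% (6.33 to 19.0) of dominated and 19.9% (18.6 to 21.3) of other loci were sharp, and at 200 to under 1000 tags 3.60% (1.18 to 8.19) and 6.62% (5.12 to 8.39), intervals that overlap in both bins. The most used base held a median of 17.5% (15.9 to 18.8) of the tags of the dominant cluster. In 210 of 420 (50%, 45.1 to 54.9) a base more than 20 bases away had at least 50% as many tags, against 38.5% (37.2 to 39.9) of all loci, and at 5000 tags or more the shares were 44.3% in dominated and 47.5% in other loci.

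At the scale of 50 bases around the most used base the dominated loci were the more concentrated set. At least 70% of the locus tags lay there in 108 of 420 (25.7%, 21.6 to 30.2), against 3.26% (2.78 to 3.79) of all 4911 loci. Under 200 tags this held in 52 of 112 dominated loci (46.4%, 36.9 to 56.1) and in 46 of 3318 other loci (1.39%, 1.02 to 1.84). The rule favours this measure, since it asks for 70% of the cluster tags in 1 cluster. A working label of these loci as focused thus holds for the share of 1 cluster and not for a single base, and they are called dominated here.

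**Figure D1:**
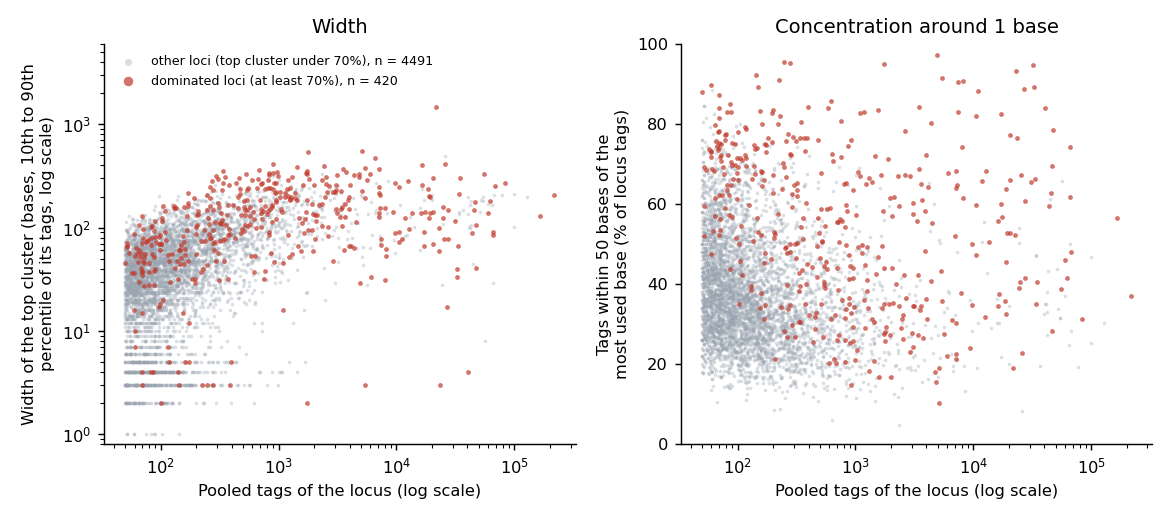
Width of the top cluster in bases (left, log scale) and percent of locus tags within 50 bases of its most used base (right), against the pooled tags of the locus (log scale), for the 420 dominated loci (red) and 4491 other loci (grey), each point 1 locus. Most red points lie above 50 bases of width, with 22 at 10 bases or less, and red points spread from 10.2% to 97.1% on the right.

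The width moved with the number of tags, and the part of depth in it was tested only by bins. Among dominated loci the median width was 54.5 bases (47 to 62) under 200 tags, 135 (114 to 151) at 200 to under 1000, 177 (142 to 200) at 1000 to under 5000 and 138 (115 to 157) at 5000 or more. In the other loci it was 33 (32 to 34), 70.5 (67 to 75), 114.5 (103 to 133) and 138 (102 to 165) in the same bins, so the medians were equal in the highest bin. Isolated loci, made of 1 cluster with no neighbour on its strand within 1000 bases and at least 50 tags, numbered 115 and had a median width of 68 bases (55 to 77). Under 200 tags, 72 isolated loci had a median of 58.5 bases (44 to 71), beside 54.5 bases for the dominated loci. Joining positions at most 10 bases apart left 223 dominated loci with a median width of 48 bases, and joining at up to 40 bases gave 815 loci with 189 bases.

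The dominant cluster was the first from the 5′ end in 97 of 420 loci (23.1%, 19.1 to 27.4) and the last in 76 (18.1%, 14.5 to 22.1). In 247 loci (58.8%, 53.9 to 63.6) it had minor clusters on both sides. The mean of 1 divided by the number of clusters, which a place given evenly to all clusters would yield, was 22.3%. In the other loci the top cluster was first in 10.7% (9.80 to 11.6), with a mean of 17.9% by the same sum. The difference from the other loci was present in each tag bin, from 30.4% against 12.1% under 200 tags to 19.0% against 5.08% at 5000 or more. Under 200 tags the mean by the same sum was 29.7% in dominated and 19.1% in other loci. Position was not used to choose the loci, but the number of clusters was.

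The 1875 minor clusters were small and short. Upstream ones numbered 853, with a median of 12 tags over 22 bases, and downstream ones 1022, with a median of 13 tags over 26 bases. Of all minor clusters, 63.2% (61.0 to 65.4) had under 20 tags. The nearest minor cluster lay a median of 36 bases (33 to 41) from the dominant one. Upstream clusters lay a median of 180 bases (165 to 198) away and downstream clusters 367 bases (315 to 416), against 257 and 246 bases in the other loci.

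Minor tags lay mostly downstream in sum, and few loci held a large part of the downstream tags. Downstream clusters held 78.7% (78.5 to 78.9) of the aposymbiotic and 72.3% (72.1 to 72.4) of the symbiotic minor tags, against 52.4% and 46.0% in the other loci. Of the pooled downstream tags, 1 locus held 21.7% and 10 loci 57.7%, and without those 10 the shares were 62.8% and 51.8%. Taking out the loci with the most downstream tags lowers the shares by construction, so whether the sum rests on few loci is not settled by it. By count of loci, 237 of 420 (56.4%, 51.5 to 61.2) had more minor tags downstream and 179 more upstream. The share was lower in the symbiotic library with and without these loci.

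**Figure D2:**
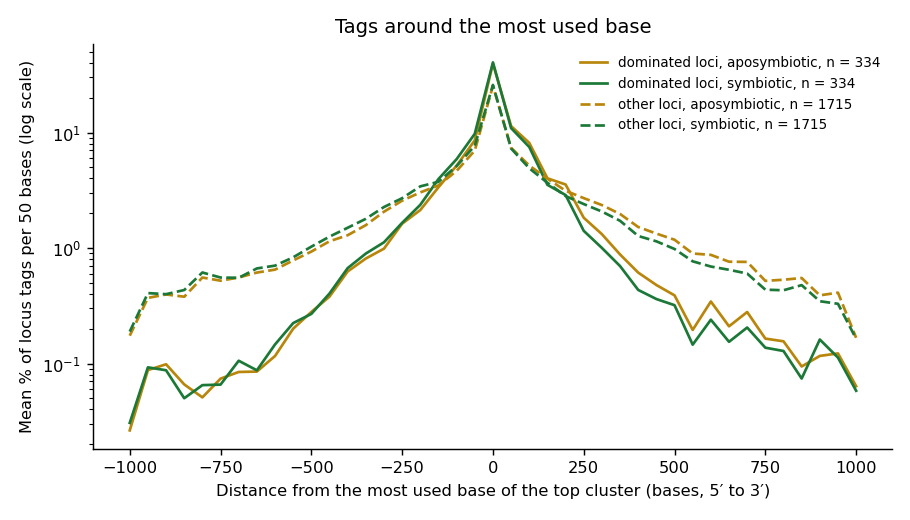
Mean percent of locus tags per 50 bases (log scale) against distance from the most used base of the top cluster, for loci with at least 50 tags in each library: 334 dominated loci (solid) and 1715 other loci (dashed), aposymbiotic in ochre and symbiotic in green, each locus weighted equally. The central 50 bases hold 39.6% and 40.5% in dominated loci, and at 250 bases downstream the aposymbiotic line (1.83%) lies above the symbiotic one (1.41%).

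The strongest dominated loci show these arrangements. The locus with the most tags lay at scaffold_5:4512421-4514488 (minus strand) with 67747 aposymbiotic and 149873 symbiotic tags in 8 clusters. Its dominant cluster, with 4 clusters upstream and 3 downstream, spanned 605 bases and had 45385 and 113127 tags. A second strong cluster 159 bases downstream, from 4512677 to 4513126, had 21948 and 35861 tags. In CPM the dominant cluster was 1.36-fold higher in the symbiotic library (1.34 to 1.37), and the downstream one was 1.12-fold lower (1.11 to 1.14). In whole animals, fewer cells that use a locus and less RNA per cell cannot be told apart. The dominant share was 67.0% (66.6 to 67.3) for aposymbiotic and 75.5% (75.3 to 75.7) for symbiotic tags, on either side of the 70% used to choose the loci.

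At scaffold_7:7415172-7417378 (plus strand), 10 clusters had 54262 and 110717 tags. The dominant cluster of 240 bases had 42772 and 90647 tags, and a cluster 113 bases downstream had 11365 and 19821. The dominant cluster was 1.15-fold higher (1.14 to 1.17) and the downstream cluster 1.05-fold lower (1.03 to 1.08) in the symbiotic library. The other clusters of this locus had at most 94 tags each.

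In a pair of the 10 strongest loci the main minor cluster lay upstream, and there the symbiotic library was higher. At scaffold_2:7918373-7921106 (plus strand), the dominant cluster had 21724 and 42883 tags, 1.07-fold higher (1.06 to 1.09). The cluster 109 bases upstream of it had 5459 and 12665 tags, 1.26-fold higher (1.22 to 1.30). The most used base of this dominant cluster differed between the libraries, base 7918897 by aposymbiotic and base 7918747 by symbiotic tags. At scaffold_9:6960246-6962298 (minus strand), the dominant cluster had 17628 and 27642 tags, 1.17-fold lower (1.15 to 1.19), while the cluster 224 bases upstream had 5003 and 11314 tags, 1.23-fold higher (1.19 to 1.27). The dominant share there was 77.6% (77.0 to 78.1) aposymbiotic and 70.6% (70.2 to 71.1) symbiotic.

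Other strong loci began with their dominant cluster. At scaffold_8:6870746-6872353 (plus strand), the first of 9 clusters had 22173 and 43651 tags. The only other cluster of this locus with over 50 tags, 152 bases downstream, had 981 and 1128 tags and was 1.60-fold lower in the symbiotic library (1.46 to 1.74). At scaffold_12:6807356-6809617 (minus strand), the first of 10 clusters held 99.1% (99.0 to 99.3) and 99.3% (99.2 to 99.4) of the 22511 and 44049 tags. On scaffold_2 the loci from 11585578 to 11587969 and from 14882276 to 14884756, both on the plus strand, also began with it. Their dominant clusters had 15971 and 33750 tags and 12003 and 25857 tags, 1.15-fold (1.13 to 1.17) and 1.17-fold (1.148 to 1.199) higher in the symbiotic library. The next clusters downstream in these loci had 3544 and 5792 tags and 2406 and 3982 tags, 1.12-fold (1.08 to 1.17) and 1.11-fold (1.05 to 1.17) lower.

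In 2 further loci among the 10 strongest, levels of the dominant cluster were close and those downstream were apart. At scaffold_4:4468447-4470022 (plus strand), the dominant cluster had 21000 and 39015 tags, a ratio of 1.01 (0.995 to 1.03). A cluster 422 bases downstream had 2205 and 2527 tags and was 1.60-fold lower in the symbiotic library (1.51 to 1.70). At scaffold_6:2747099-2748607 (minus strand), the dominant cluster of 866 bases had 19349 and 33462 tags, 1.06-fold lower (1.04 to 1.08), and the cluster 99 bases downstream had 1003 and 1002 tags, 1.84-fold lower (1.68 to 2.01).

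**Figure D3:**
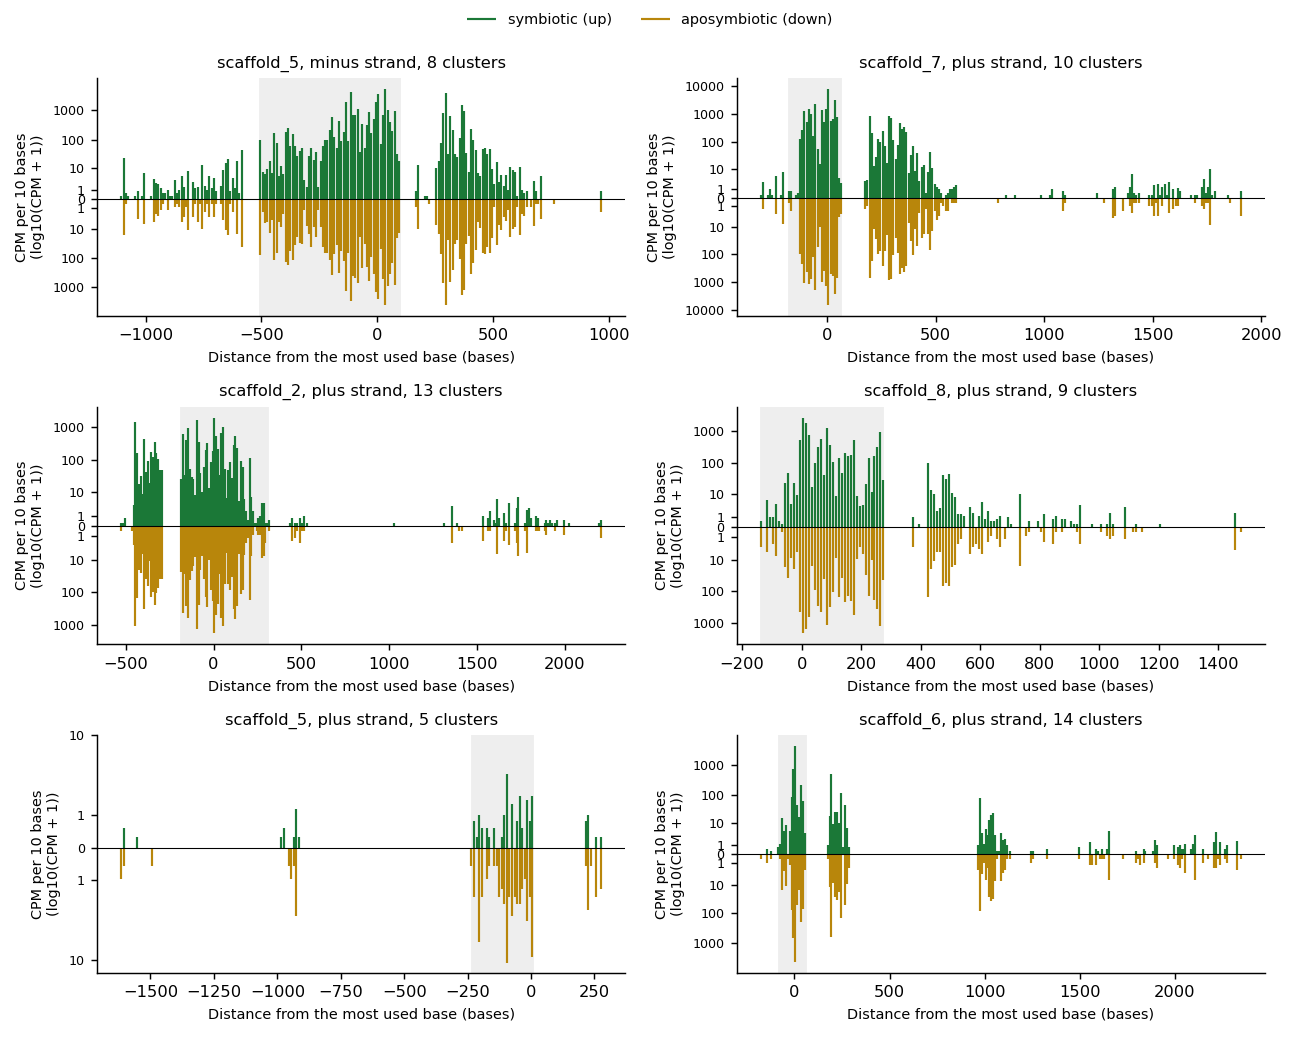
CPM per 10 bases on a log10(CPM + 1) scale against distance from the most used base in 6 dominated loci, symbiotic upward in green and aposymbiotic downward in ochre, with the dominant cluster shaded. The panels show the 4 loci with the most tags, the locus with the lowest ratio (scaffold_5, plus strand) and the strongest sharp locus (scaffold_6). In the panel of the lowest ratio the locus has 154 aposymbiotic and 93 symbiotic tags.

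The 3 loci with a sharp dominant cluster and the most tags were named after their values were seen. Like all members, they have other clusters by the rule. At scaffold_6:13981517-13984036 (plus strand), the dominant cluster of 4 bases in width had 11851 and 22402 tags, and the first cluster downstream of it, 52 bases wide, had 1960 and 3049. At scaffold_7:14531871-14532994 (plus strand), the dominant cluster was 3 bases wide with 6349 and 11978 tags and its most used base held 55.3% of them. The 2 clusters downstream of it had 1101 and 1711 tags and 1240 and 1230 tags, 1.18-fold (1.09 to 1.28) and 1.85-fold (1.71 to 2.00) lower in the symbiotic library, while the dominant cluster had a ratio of 1.03 (0.996 to 1.06). At scaffold_1:33373920-33374734 (plus strand), the dominant cluster was 3 bases wide and held 91.6% and 91.5% of 2511 and 2885 tags.

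The longest dominated locus lay at scaffold_18:1506-7630 (plus strand) with 6844 and 14841 tags in 18 clusters. Its dominant cluster, from 1786 to 4040, was the longest of all dominated loci at 2255 bases, with a width of 1480 bases, and its most used base held 8.44% of its tags. The next longest lay at scaffold_1:6835972-6840273 (plus strand, 1325 and 2718 tags), with 8 minor clusters upstream and 2 downstream of the dominant one, and at scaffold_12:3357363-3361138 (minus strand, 624 and 874 tags), with 10 upstream and 4 downstream. The locus with the most clusters, 23, lay at scaffold_5:12548450-12551827 (minus strand) with 2418 and 3712 tags. Its dominant cluster was second from the 5′ end with 1669 and 2795 tags, and 21 clusters followed it. The cluster 87 bases downstream of that dominant cluster had 423 and 421 tags, 1.85-fold lower in the symbiotic library (1.61 to 2.12), against 1.097-fold lower (1.03 to 1.17) for the dominant cluster. At scaffold_1:37938551-37942233 (minus strand), 16 clusters had 11096 and 23353 tags, 96.0% and 96.9% of them in the dominant cluster.

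The same cluster led in both libraries in all 420 dominated loci, against 65.4% (64.0 to 66.8) of the other loci, a comparison that the threshold of 70% favours. By the tags of 1 library, the dominant cluster held at least 70% in 366 loci by aposymbiotic and in 393 by symbiotic tags. When loci were chosen in 1 library alone and read in the other, the share was measured on tags that the choice had not used. Chosen on the aposymbiotic library, 200 loci had a median dominant share of 80.1% (77.8 to 82.5) of all tags in the span in that library and 81.6% (79.9 to 83.5) in the symbiotic library, where 161 (80.5%, 74.3 to 85.8) reached 70%. Chosen on the symbiotic library, 321 loci had 79.9% (78.4 to 81.9) there and 79.3% (77.6 to 81.1) in the aposymbiotic library, where 241 (75.1%, 69.97 to 79.7) reached 70%.

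The dominant share was slightly higher in the symbiotic library in loci with 200 tags or more. In the 334 dominated loci with at least 50 tags in each library, a median of 17.8% (15.9 to 20.3) of the aposymbiotic and 16.6% (14.9 to 18.0) of the symbiotic tags lay outside the dominant cluster. The share of the dominant cluster was higher in the symbiotic library in 221 of 334 loci (66.2%, 60.8 to 71.2) and lower in 113, with a median difference of 1.04 percentage points (0.704 to 1.68). In the other loci the same direction was seen in 55.2% (52.8 to 57.6). The size of the difference was alike, with a median of 1.02 points (0.729 to 1.40) over all 2049 loci with 50 tags in each library. Under 200 tags the share was higher in 13 of 27 dominated loci (48.1%, 28.7 to 68.1), with a median difference of -0.05 points. It was higher in 64.5% (55.9 to 72.4) at 200 to under 1000 tags, 68.9% (58.3 to 78.2) at 1000 to under 5000 and 72.2% (60.9 to 81.7) at 5000 or more, beside 53.3%, 55.6%, 56.2% and 64.4% of the other loci in the 4 bins. A difference of at least 10 points toward the symbiotic library occurred in 15 of the 334 loci, against 11.4% of all 2049 loci with 50 tags in each library. Toward the aposymbiotic library it occurred in 7 of 334, against 7.52%. Both counts lie below these shares, and the rule fixed the pooled share of the members, so nothing is read from them.

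**Figure D4:**
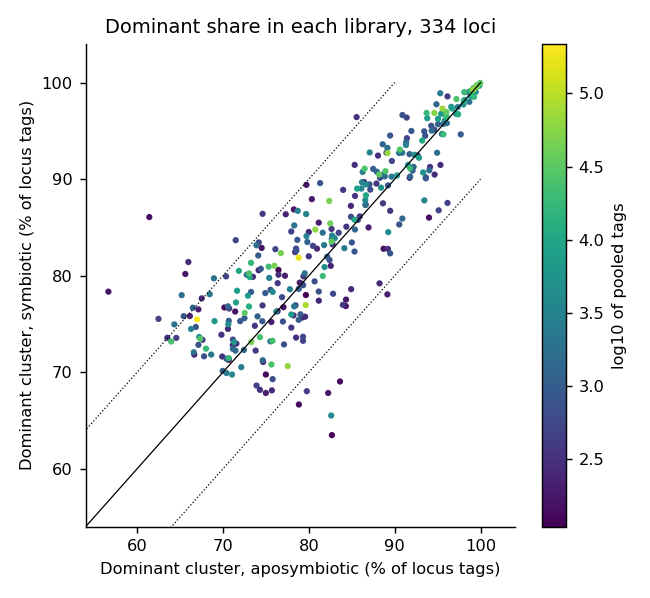
Percent of locus tags in the dominant cluster in the symbiotic library (y axis) against the aposymbiotic library (x axis) for the 334 dominated loci with at least 50 tags in each, coloured by log10 of pooled tags. The solid line marks equal shares and the dotted lines a difference of 10 points, with 15 loci at or above the upper and 7 at or below the lower line.

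The largest differences in share belonged mostly to loci with few tags. At scaffold_3:2977802-2978328 (plus strand), the share was 61.4% (49.0 to 72.8) of 70 aposymbiotic and 86.1% (76.5 to 92.8) of 79 symbiotic tags, with 24 aposymbiotic and 9 symbiotic tags downstream. At scaffold_13:1124925-1125492 (plus strand), it was 66.0% (55.7 to 75.3) of 97 and 81.4% (75.02 to 86.8) of 183 tags. In the opposite direction, at scaffold_2:7125001-7125128 (plus strand) it was 82.7% (69.7 to 91.8) of 52 and 63.5% (50.4 to 75.3) of 63 tags. At scaffold_2:9270410-9270790 (minus strand), it was 83.6% (71.2 to 92.2) of 55 and 69.0% (58.0 to 78.7) of 84 tags. These intervals overlap in all but the locus on scaffold_3. The exception in depth was at scaffold_8:6089386-6090932 (minus strand) with 1409 and 2332 tags and shares of 82.6% (80.5 to 84.6) and 65.5% (63.6 to 67.5). There the dominant cluster of 541 bases had 1164 and 1528 tags, 1.40-fold lower in the symbiotic library (1.30 to 1.51), and a cluster of 76 bases lying 787 bases downstream had 196 and 747 tags, 2.08-fold higher (1.77 to 2.44).

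Clusters downstream of the dominant one were lower in the symbiotic library relative to it, and those upstream were higher. The comparison used the log2 ratio of symbiotic to aposymbiotic CPM + 1, summed over all minor clusters on a side with at least 50 pooled tags and taken relative to the dominant cluster of the same locus, so it does not depend on the scaling of the libraries by their totals beyond the added 1. Downstream, 147 of 164 dominated loci (89.6%, 83.9 to 93.8) were below their dominant cluster, with a median of -0.40 (-0.47 to -0.34) on the log2 scale. Upstream, 49 of 130 (37.7%, 29.3 to 46.6) were below it, with a median of 0.14 (0.05 to 0.18). In the 56 loci with 50 tags on both sides, the downstream side was below the upstream side in 52 (92.9%, 82.7 to 98.0), with a median difference of -0.56 on the log2 scale. The other loci showed the same directions, with 68.8% (66.3 to 71.2) below and a median of -0.28 (-0.32 to -0.24) downstream, and 40.1% (37.6 to 42.7) and 0.11 (0.08 to 0.16) upstream. A lower ratio toward the 3′ end was already seen over all clusters of these libraries, so these loci give no independent evidence of it.

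**Figure D5:**
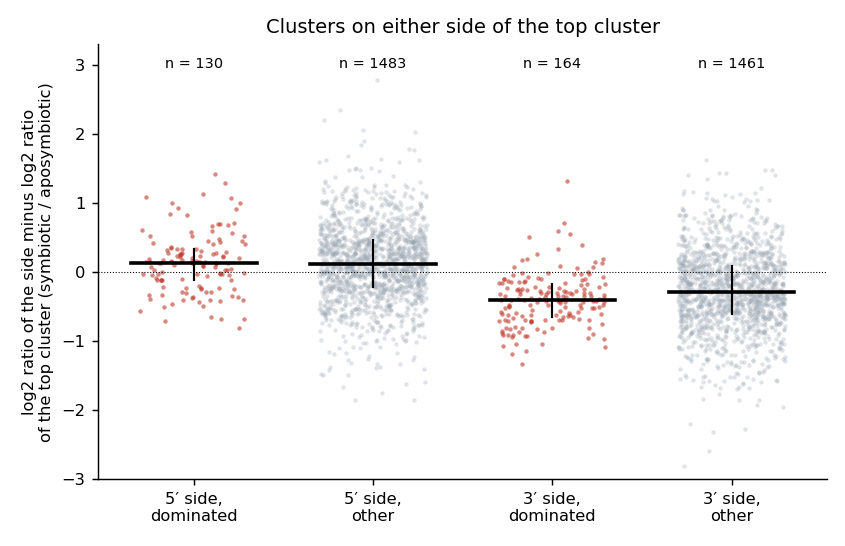
Log2 ratio (symbiotic over aposymbiotic) of the summed minor clusters on each side of the top cluster minus that of the top cluster itself, each point 1 locus with at least 50 tags on that side, with median (thick bar) and quartiles (thin bar). In dominated loci the 5′ side has a median of 0.14 (n = 130) and the 3′ side a median of -0.40 (n = 164).

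The number of tags moves with this result, and its part was tested only by bins. Downstream clusters were below the dominant one in 87.0% (73.7 to 95.1) of the dominated loci with 200 to under 1000 tags, 89.5% (78.5 to 96.0) of those with 1000 to under 5000 and 91.8% (81.9 to 97.3) of those with 5000 or more. In the other loci the shares were 71.4% (67.9 to 74.8), 83.1% (75.5 to 89.1) and 92.2% (81.1 to 97.8), so at 5000 tags or more the shares lay within each other's intervals. No dominated locus with under 200 tags had 50 tags on a side. Few of the differences were large. The downstream clusters of 7 of 164 dominated loci were at least 2-fold lower than the dominant cluster, against 8.80% of all 1625 loci measured, and those of 1 locus were at least 2-fold higher, against 1.66%. That locus is the one at scaffold_8:6089386-6090932. Upstream, 0 of 130 were at least 2-fold lower, against 2.23% of 1613, and 7 were at least 2-fold higher, against 5.83%.

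The difference did not grow steadily with distance. Single downstream clusters of at least 50 tags had a median of -0.38 (-0.48 to -0.29) relative to the dominant cluster within 100 bases of it (49 clusters), -0.50 (-0.60 to -0.38) at over 100 and up to 400 bases (78 clusters) and -0.26 (-0.46 to -0.19) farther away (95 clusters in 51 loci). In the other loci the medians were -0.22, -0.21 and -0.43 at these distances. Upstream clusters had medians of 0.11, 0.15 and 0.08 in the same distances (65, 38 and 24 clusters). The intervals by distance are over clusters, as if those of the same locus were independent. A shift in the same direction was seen inside the dominant cluster. Of the tags of the dominant cluster off its most used base, the part lying downstream of that base was smaller in the symbiotic library in 240 of 330 dominated loci with at least 50 tags, and 20 off that base, in each library (72.7%, 67.6 to 77.5). The median difference was -2.39 percentage points (-3.21 to -1.72). The same held in 55.1% (52.2 to 58.0) of the other loci, with a median of -0.79 points. Both shares moved with tags. Under 200 tags they were 44% (11 of 25) in dominated and 45.9% in other loci, at 200 to under 1000 tags 64.0% (55.3 to 72.0) and 53.4% (49.9 to 57.0), at 1000 to under 5000 tags 80% (70.2 to 87.7) and 62.3% (54.4 to 69.8), and at 5000 or more 88.6% (79.5 to 94.7) and 81.4% (69.1 to 90.3). The median of the dominated loci under 200 tags was 1.75 points, in the opposite direction, with an interval from -5.80 to 5.45.

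The level of whole dominated loci was close in the 2 libraries. The median locus had 109 CPM (85.1 to 140.3) in aposymbiotic and 107 CPM (83.8 to 133) in symbiotic polyps. The log2 ratio of CPM + 1 had a median of -0.11 (-0.14 to -0.06) in the dominated loci, of which 168 (40%, 35.3 to 44.9) were higher in the symbiotic library. Among the other loci the median was 0.01 and 51.3% (49.9 to 52.8) were higher. Summed over all dominated loci, the symbiotic to aposymbiotic ratio in CPM was 0.999 (0.996 to 1.002) for dominant clusters, 1.14 (1.13 to 1.16) for upstream and 0.806 (0.800 to 0.813) for downstream clusters. The sums of minor clusters rest in large part on few loci, which these intervals do not cover. Upstream they include 5460 aposymbiotic and 12670 symbiotic tags at scaffold_2:7918373-7921106, and 5003 and 11314 at scaffold_9:6960246-6962298.

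In the symbiotic library 5 of 420 dominated loci were higher by 2-fold or more, against 1.77% of all 4911 loci, and 11 were lower by as much, against 2.00%. None differed 4-fold, against 0.0814% higher and 0.163% lower of all loci. The shares among dominated loci (1.19% and 2.62%) lie near the background. Among loci with at least 100 pooled tags, 3 were higher by 2-fold or more on the scale of CPM + 1. At scaffold_12:2186306-2186996 (plus strand), 146 aposymbiotic and 568 symbiotic tags gave a 2.12-fold higher level (1.76 to 2.56). At scaffold_10:16696890-16697250 (minus strand), 21 and 87 tags gave 2.26-fold (1.39 to 3.83). At scaffold_2:5248198-5248913 (plus strand), 41 and 160 tags gave 2.12-fold (1.4997 to 3.07). The next highest, at scaffold_9:14585355-14586677 (minus strand, 287 and 927 tags) and at scaffold_5:11330876-11331602 (minus strand, 46 and 146 tags), were 1.76-fold (1.54 to 2.01) and 1.73-fold (1.23 to 2.46) higher.

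The loci with the lowest ratios were more than 2-fold lower in the symbiotic library. The lowest lay at scaffold_5:15466417-15468304 (plus strand) and its 154 and 93 tags gave a 3.04-fold lower level (2.34 to 3.98). At scaffold_6:7132674-7133020 (plus strand), 149 and 96 tags gave 2.85-fold (2.19 to 3.72), and at scaffold_16:8585715-8587224 (plus strand) 130 and 91 tags gave 2.62-fold (1.99 to 3.47). At scaffold_4:2462917-2463541 (plus strand), 180 and 139 tags gave 2.38-fold (1.90 to 2.99). The deepest of them lay at scaffold_5:18715978-18717612 (minus strand) and its 897 and 699 tags gave a 2.36-fold lower level (2.13 to 2.61). In that locus the dominant cluster (641 and 505 tags, 2.33-fold, 2.07 to 2.62) and the main cluster upstream (190 and 141 tags, 2.48-fold, 1.98 to 3.10) were lower by like amounts, and the dominant share was 71.5% and 72.2%.

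The most used base of the dominant cluster was the same in both libraries in 272 of 386 dominated loci with at least 20 tags in each (70.5%, 65.6 to 74.97). Of the other loci, 59.8% (57.4 to 62.2) had the same base. Where it differed, the bases lay a median of 50.5 bases apart (28 to 63), against 25 (22 to 28) over all loci measured. Under 200 tags the medians were 21 (3 to 50) in dominated and 19 (15 to 23) in other loci. Dominant clusters were also wider than the top clusters of all loci, which leaves room for larger distances, and the part of width was not tested. The most used bases lay over 20 bases apart in 75 of the 386, against 21.2% of all 2015 loci measured, a share near it. Agreement went with tags, from 62.8% (51.1 to 73.5) under 200 tags and 58.3% (49.6 to 66.6) at 200 to under 1000 to 80% (70.2 to 87.7) at 1000 to under 5000 and 88.6% (79.5 to 94.7) at 5000 or more. The other loci had 51.1%, 59.1%, 78.4% and 94.9% in these bins, with no order between the sets. Every dominant cluster was overlapped on its strand by a cluster of the deposited aposymbiotic list, and 416 of 420 by one of the symbiotic list. The remaining 4 were overlapped only by a cluster that this list gives to the opposite strand.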

How the data were processed

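The authors deposited raw tag counts at single bases and raw counts per start cluster for 1 aposymbiotic and 1 symbiotic library. Per the submitters' processing notes, fastp 1.1.0 and STAR 2.7.11b were used. For settings, genome build, tag counter and duplicates, the answer was not given in the sources used here, so counts may include amplified copies and intervals cover counting error only. Clusters and loci were rebuilt from the single-base counts by strand. The members, lists and comparisons were chosen with earlier results of these data known. CPM is the count scaled to a library total of 1000000 tags. The ratio of CPM + 1 understates changes of low loci. Shares have Clopper-Pearson intervals, folds exact binomial intervals and medians order-statistic intervals at 95%. Named loci are the 10 with the most tags, 5 with the largest ratio each way (at least 100 tags), 3 with the largest share difference each way, the 3 longest, the 3 with the most clusters, and 3 on either side of the threshold. The 3 sharp loci were added after their values were seen. Rules were tested on simulated data. Alternatives covered joining, thresholds, depth and scaling. Planned tests: none, since each group has 1 library. TMM factors came from edgeR 4.0.16 (R 4.3.3), and the rest was computed in Python 3.11.15 with scipy 1.17.1, pandas 2.3.3, numpy 2.4.6 and matplotlib 3.10.9.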

Additional observations from a re-analysis of the deposited data

Results flagged for a closer look

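Tags on the strand opposite to a dominated locus lie outside the comparisons above. Within the spans of the 420 loci there were 30 aposymbiotic and 40 symbiotic tags of this kind. They made up 0.00349% (0.00235 to 0.00498) and 0.00258% (0.00185 to 0.00352) of the tags there. In the other 4491 loci the shares were 0.0133% and 0.0142%. These are shares of the tags in the spans, which were more per locus in the dominated loci. By count, 5 of the 420 loci had more than 3 such tags in both libraries together, against 0.591% (29) of all 4911 loci. The most, 5 and 8, lay in the locus at scaffold_18:1506-7630, beside 6850 and 14860 tags on its own strand.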

How the results depend on the processing

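Alternatives gave 198 values. Of these, 81 left the 95% interval of the reported value or, for counts, differed by over 1.5 times. None of the values with a direction of its own turned it. Single counts have no direction, and the balance of loci 2-fold higher and lower depended on the library that chose them. No paired analysis was possible because either condition is held by 1 library, which also leaves no library to omit. The settings without the 10 loci with the most tags and with 100 tags on a side were chosen after the data were seen. Depth limits loci with few tags. Fewer or more loci follow from stricter or looser rules by construction, and otherwise the cause was not tested.

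The number of dominated loci was 223 with joining at 10 bases, 815 at 40 bases, 820 and 209 with a dominant share of 60% and 80%, and 200 when chosen on the aposymbiotic library. On that choice 31.5% had the dominant cluster first. In the order joining at 10 and 40 bases, 10 tags per cluster, gaps of 500 and 2000 bases, shares of 60% and 80%, equal depth, choice on the aposymbiotic and on the symbiotic library, and without the 10 loci with the most tags, the downstream percent of minor tags was 77.0, 73.2, 77.6, 76.2, 80.2, 67.7, 87.0, 77.7, 68.6, 78.4 and 77.1 in the aposymbiotic library. In the symbiotic library it was 69.7, 64.6, 71.2, 69.2, 73.9, 60.8, 83.3, 71.1, 58.9, 71.3 and 70.2. The median percent outside the dominant cluster was 15.4 and 14.6 (aposymbiotic, symbiotic) at 40 bases, 26.3 and 24.7 with a share of 60%, and 10.6 and 9.52 with 80%.

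Loci with a share at least 10 points higher in the symbiotic library numbered 3 and 33 with joining at 10 and 40 bases, 45 and 2 with shares of 60% and 80%, 9 at equal depth, 7 when chosen on the aposymbiotic library and 2 at 20 points. Toward the aposymbiotic library they numbered 2 and 18, 16 and 1, 3, 3 and 0 in these settings, 2 with 10 tags per cluster and 11 with a gap of 500 bases. Loci higher by 2-fold or more in the symbiotic library numbered 1 and 12 with joining at 10 and 40 bases, 3 with 10 tags per cluster, 8 and 2 with shares of 60% and 80%, 3 with 100 tags per locus, 2 at equal depth, 0 when chosen on the aposymbiotic library and 2 with 5 CPM added. Loci 2-fold lower numbered 4 and 18, 6, 23 and 3 in the first of these settings, 2 when chosen on the symbiotic library and 5 with 5 CPM added. TMM factors and a median ratio of 1 left 5 higher and 11 lower. The number of dominated loci differs between many of these settings, and the shares over all loci are not given for them. The counts in this paragraph thus cannot be read as a change in frequency or set against the background.

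The same most used base was found in 82.0% and 57.0% with joining at 10 and 40 bases and in 80.4% when chosen on the aposymbiotic library. The median width was 48 and 189 bases with joining at 10 and 40 bases, 137 with 10 tags per cluster and also with 100 tags per locus, 87.5 and 139 with shares of 60% and 80%, 94 when chosen on the aposymbiotic library and 62.5 from the 25th to the 75th percentile. Downstream clusters were below the dominant one in 83.7% with a share of 60% and in 84.3% to 93.5% in the other settings. Upstream clusters were below it in 25% with joining at 10 bases and in 28.2% when chosen on the symbiotic library, where their median was 0.21 on the log2 scale.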
